A study of Mus musculus with 1931 samples.

Results

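The genes described here encode receptors through which cells hold on to the extracellular matrix, namely 9 integrin subunits and dystroglycan. They are *Itga3*, *Itga5*, *Itga6*, *Itga7*, *Itgav*, *Itgb1*, *Itgb3*, *Itgb4*, *Itgb5* and *Dag1*, which were chosen by name for their function, and all 10 were found among the 20999 genes of the expression table. Integrins are dimers of an alpha and a beta subunit. The alpha subunits of *Itga3*, *Itga6* and *Itga7* pair with the beta subunit of *Itgb1* to bind laminins, *Itga5* with *Itgb1* forms the main receptor of fibronectin, and *Itgav* joins *Itgb1*, *Itgb3* or *Itgb5* to bind ligands such as vitronectin and osteopontin. *Itga6* with *Itgb4* forms the integrin of hemidesmosomes, and dystroglycan, the product of *Dag1*, binds laminin through sugar chains that a set of dedicated enzymes adds. In the early mouse embryo, the epiblast (Epi) and the extraembryonic ectoderm (ExE) rest on a basement membrane, to which the surrounding visceral endoderm (VE) contributes laminin and collagen IV.

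The study built embryo-like structures, termed RtL-embryoids, by growing 3 mouse embryonic stem cell (ESC) lines together in 3D, and compared them with 2D mono-cultures. Kermit ESCs express GFP under the control of the *Oct3/4* promoter and give rise to the Epi-like cells. In iGATA6 ESCs that also carry mCherry, doxycycline (DOX) switches on *Gata6* and leads to VE-like cells, and in 5-Factor ESCs it switches on *Cdx2*, *Tfap2c*, *Eomes*, *Gata3* and *Ets2* and leads to ExE-like cells. All 3 lines of the co-culture were exposed to DOX at 2 µg/ml, which was then withdrawn, and the structures were picked by hand, pooled, stained for CD40 and sorted as single cells into plates 3, 4 and 5. The 2D cultures were ESC, which are Kermit ESCs kept in 2i/LIF without DOX (plate 7), iTSC, which are 5-Factor ESCs induced with DOX in medium for trophoblast stem cells (plate 8), and iXEN, which are iGATA6 mCherry ESCs induced with DOX in medium for extraembryonic endoderm cells (plate 9). Each line is thus a transgenic ESC line. The fate of the iGATA6 and 5-Factor lines was driven by the factors named, while Kermit ESCs carry the GFP reporter and no such factor. Endogenous and transgenic transcripts cannot be told apart in the table.

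Expression was measured by SMART-seq2, which reads full-length cDNA of single cells and uses no molecular identifiers. The deposited values are TPM, transcript abundances corrected for transcript length and for the size of the library, so that levels can be compared between genes. Wells with fewer than 2500 genes above 0 were left out, and 1406 of 1931 wells remained. In each cell the values were scaled to a sum of 10000, and the resulting level is termed TP10k. A gene counted as found in a cell when its value was above 0. Of 982 3D cells, 31.98% were Epi-like (well columns 1 to 8 of plates 3, 4 and 5), 32.08% VE-like (well columns 9 to 16) and 35.95% ExE-like (well columns 17 to 24). Of 424 2D cells, 33.49% were ESC, 33.25% iXEN and 33.25% iTSC. Each group was 1 sample, since the 3D cells came from 1 pool and no separate cultures of a 2D line were named, and plates 3, 4 and 5 are technical splits of the pool. There was therefore no replicate check and no test between groups, and means are given with their values on the single plates. Shares of cells carry exact 95% confidence intervals (CI, Clopper-Pearson), which cover counting error only.

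The labels give the plate and well of a 3D cell but no lineage, so the lineage of each block of well columns was assumed and held against marker genes. Of the 3 lineage lists, the list with the largest share of its genes found led in a cell. Ties went to the list of the cell's own columns. In the Epi-like columns, the Epi list (7 genes, among them *Pou5f1*) led in 100% of cells. In the VE-like columns, the VE list (8 genes, among them *Amn*, *Cubn* and *Gata4*) led in 98.7% of cells. The ExE-like columns were mixed by this measure. There, the ExE list (8 genes, among them *Cdx2*, *Elf5* and *Eomes*) led in 72% of cells (95% CI 67% to 76.6%). The Epi list led in 69 cells (19.5%) and the VE list in 30 cells (8.50%). *Cdx2* and *Eomes* are also transgenes of the line that gives rise to ExE-like cells. Epi-like cells were sorted by a GFP signal that the *Pou5f1* promoter drives. The marker check is thus not independent of the lines and the sort. The lists differ in length, and a gene of the Epi list was found in 89.5% of ExE-like cells. By summed level, the ExE list stood at 9.91 TP10k in ExE-like cells and the Epi list at 2.89. The cells led by the Epi list are not shown apart below. Summed over its 8 genes, the VE list stood at 0.0658 TP10k in Epi-like, 23.7 in VE-like and 2.37 in ExE-like cells. *Pou5f1* was found in 90.8% of VE-like cells. A list of 8 parietal endoderm genes, which includes *Sparc*, *Srgn*, *Col4a1* and *Lamb1*, summed to 113.7 TP10k in VE-like cells and 149.2 in iXEN, against 1.48 in Epi-like cells, so that both carried markers of visceral and of parietal endoderm. Of 6 blood and endothelial markers, *Pecam1* alone was frequent, found in 71.7% of Epi-like cells and 99.3% of ESC, while the other 5 were found in at most 7.62% of the cells of a 3D compartment. Giant cell markers (5 genes) summed to at most 0.00554 TP10k in any group and fibroblast markers (8 genes) to at most 0.0615. TPM keep no read number, and the number of genes per cell was taken as depth. Its median was 4823 in Epi-like, 5348 in VE-like and 5396 in ExE-like cells, but 9093.5 in ESC, 8699 in iXEN and 8537 in iTSC. Weakly expressed genes are hence found in a larger share of 2D cells, and shares are compared between 3D and 2D only beside the means. Culture, plate and library batch differed together between 3D and 2D and cannot be told apart.

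The 250 bases before the annotated start of transcription are shown for 4 genes with contrasting levels on which the results below turn, the fibronectin receptor subunit *Itga5*, the beta subunits *Itgb1* and *Itgb5* and dystroglycan. They were taken from RefSeq (GRCm38.p6), which held an entry for 6 of the 10 genes, and run 5′ to 3′ on the strand of the gene. The window of *Itga5* lies at chr15:103366792-103367041 on the minus strand, that of *Itgb1* at chr8:128685404-128685653 on the plus strand, that of *Itgb5* at chr16:33829415-33829664 on the plus strand, and that of *Dag1* (the start farther upstream of the 2 annotated) at chr9:108263959-108264208 on the minus strand. Capitals mark the motifs GGGCGG (the GC box) and CCAAT on either strand, so that they also appear as CCGCCC and ATTGG.
Itga5: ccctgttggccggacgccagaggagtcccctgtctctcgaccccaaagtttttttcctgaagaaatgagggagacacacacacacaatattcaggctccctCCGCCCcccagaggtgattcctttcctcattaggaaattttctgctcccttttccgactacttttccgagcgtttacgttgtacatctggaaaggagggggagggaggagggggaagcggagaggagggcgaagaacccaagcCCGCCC
Itgb1: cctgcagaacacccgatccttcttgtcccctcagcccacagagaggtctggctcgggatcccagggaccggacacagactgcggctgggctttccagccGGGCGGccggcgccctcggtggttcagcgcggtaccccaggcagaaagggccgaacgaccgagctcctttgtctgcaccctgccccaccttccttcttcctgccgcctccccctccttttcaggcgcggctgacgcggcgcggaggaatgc
Itgb5: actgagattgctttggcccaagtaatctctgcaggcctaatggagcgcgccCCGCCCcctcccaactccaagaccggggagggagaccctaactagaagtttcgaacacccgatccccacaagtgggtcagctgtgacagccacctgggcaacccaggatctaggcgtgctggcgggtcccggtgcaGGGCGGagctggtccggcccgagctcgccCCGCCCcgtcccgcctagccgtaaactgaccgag
Dag1: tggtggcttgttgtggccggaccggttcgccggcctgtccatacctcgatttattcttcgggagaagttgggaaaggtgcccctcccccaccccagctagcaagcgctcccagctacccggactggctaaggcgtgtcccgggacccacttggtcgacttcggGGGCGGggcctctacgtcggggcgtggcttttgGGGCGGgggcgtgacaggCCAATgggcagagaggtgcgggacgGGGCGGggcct
Of the 6 genes with an entry, the GC box was present before the starts of 5 and did not occur in the window of *Itgav*, and CCAAT was present in windows of *Dag1* and *Itga3*. Of the windows of the same length before 32817 annotated starts, 32.7% and 33.8% held these motifs. GATAA, the core bound by GATA factors, and TATAAA were searched on both strands and did not occur in the windows of these 6 genes, while they occurred in 22.6% and 12.4% of all windows. The share of G and C was 55.6% in *Itga5*, 68% in *Itgb1*, 65.2% in *Itgb5* and 67.6% in *Dag1*. A match describes the letters of the window and is no evidence of binding.

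The fibronectin receptor subunit *Itga5* (chr15:103344286-103366763, minus strand) was the alpha subunit with the highest level in VE-like cells. Its mean was 0.626 TP10k there (0.582, 0.587 and 0.721 on plates 3, 4 and 5), against 0.126 in Epi-like cells (0.151, 0.0812 and 0.149) and 0.139 in ExE-like cells (0.141, 0.153 and 0.123). In 2D it stood at 0.554 TP10k in iXEN, 0.157 in ESC and 0.177 in iTSC. Both endodermal groups were thus at a high level and the other 4 groups at a low level, and every VE-like plate was above every plate of the other compartments. The mean in VE-like cells was 4.96-fold that in Epi-like cells (3.86-fold to 7.22-fold on single plates) and 4.50-fold that in ExE-like cells (3.83-fold to 5.87-fold), and iXEN were 3.52-fold above ESC and 3.13-fold above iTSC. Of the VE-like cells 90.5% had *Itga5* (95% CI 86.7% to 93.5%), beside 31.8% of the Epi-like and 41.9% of the ExE-like cells. Within the ExE-like columns, its mean was 0.124 TP10k in the cells led by the ExE list and 0.372 in the 30 cells led by the VE list.

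*Itga6* (chr2:71745616-71858416, plus strand), the alpha subunit of laminin receptors and of hemidesmosomes, was distributed the other way. It averaged 0.570 TP10k in Epi-like cells (0.581, 0.568 and 0.561 on plates 3, 4 and 5) and 0.436 in ExE-like cells (0.417, 0.368 and 0.527), but 0.118 in VE-like cells (0.123, 0.112 and 0.120). In 2D, the highest mean was that of iTSC at 0.920 TP10k, followed by ESC at 0.485, and the lowest that of iXEN at 0.0971. The endodermal groups were again apart from all others, here at the low end, with Epi-like cells 4.81-fold above VE-like cells (4.69-fold to 5.05-fold on single plates) and ESC 5.00-fold above iXEN. Epi-like cells and ESC were close in level, and the ESC mean lay within the range of the ExE-like plates. *Itga6* was found in 74.5% of Epi-like (95% CI 69.3% to 79.2%), 55% of ExE-like and 22.2% of VE-like cells. Within the ExE-like columns it stood at 0.480 TP10k in cells led by the ExE list and at 0.103 in those led by the VE list.

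The laminin receptor subunit *Itga3* (chr11:95044474-95076801, minus strand) was low in the co-culture and highest in iXEN. Its mean was 0.143 TP10k in VE-like cells (0.152, 0.146 and 0.129 on plates 3, 4 and 5), 0.0646 in ExE-like cells (0.0582, 0.0826 and 0.0532) and 0.0470 in Epi-like cells (0.0470, 0.0655 and 0.0283). The 2D means were 0.264 TP10k in iXEN, 0.193 in iTSC and 0.0494 in ESC. VE-like cells were above Epi-like cells by 3.04-fold and above ExE-like cells by 2.21-fold, and all 3 VE-like plates were above every plate of the other compartments. The gap to ExE-like cells fell below 2-fold, to 1.94-fold, when only the 3D cells led by their own lineage list were used. *Itga3* was found in 42.9% of VE-like cells, 21.2% of ExE-like cells and 11.8% of Epi-like cells, and in 88.7% of iXEN, 65.2% of iTSC and 52.1% of ESC.

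*Itga7* (chr10:128933818-128958282, plus strand), whose product is best known as a laminin receptor of muscle, was low except in trophoblast-like cells. It averaged 0.192 TP10k in iTSC and 0.0537 in ExE-like cells (0.0388, 0.0371 and 0.0866 on plates 3, 4 and 5), while the means of Epi-like cells (0.0167), VE-like cells (0.0121), iXEN (0.0114) and ESC (0.00915) were all lower. The iTSC mean was 21-fold that of ESC and 16.9-fold that of iXEN. ExE-like cells were 3.21-fold above Epi-like cells and 4.43-fold above VE-like cells, with a wide range of 1.56-fold to 16.8-fold on single plates in the latter case. Leaving out plate 3 put VE-like cells at 0.0835 of the ExE-like mean, and leaving out plate 5 at 0.400, beside 0.226 with all plates. The share of cells did not follow the means, since *Itga7* was found in 50.0% of ESC and 56% of iTSC, and 14.1% and 44.7% when at least 1 TPM was required. In iTSC the cells spread widely, from 0 to 1.52 TP10k, with a median of 0.0114. In *Itga7*, 9 exon bases overlap those of *Mettl7b* on the opposite strand, and the reads carry no strand.

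*Itgav* (chr2:83724397-83806916, plus strand), the shared alpha subunit of the receptors for vitronectin and osteopontin, was highest in ExE-like cells. Its mean there was 0.546 TP10k, with 0.401, 0.513 and 0.735 on plates 3, 4 and 5. Epi-like cells (0.252 TP10k) and VE-like cells (0.263 TP10k) did not differ beyond the plates, which ranged from 0.242 to 0.259 and from 0.230 to 0.282. The 2D means were 0.336 TP10k in iTSC, 0.198 in iXEN and 0.172 in ESC, so that the span over all 6 groups was 3.17-fold, the smallest of the 10 genes. ExE-like cells were 2.17-fold above Epi-like and 2.08-fold above VE-like cells. Both ratios fell below 2-fold without plate 5, where Epi-like cells stood at 0.550 and VE-like cells at 0.559 of the ExE-like mean. *Itgav* was found in 68.3% of ExE-like cells, 45.7% of VE-like cells and 42.7% of Epi-like cells. It shares 634 exon bases with the noncoding *Gm13684* on the opposite strand.

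*Itgb1* (chr8:128685654-128733200, plus strand), the beta subunit common to most receptors above, had the highest level of the 10 genes in VE-like cells, ExE-like cells, iXEN and iTSC, while *Itga6* was above it in ESC and, except on plate 5, in Epi-like cells. The mean was 1.45 TP10k in ExE-like cells (1.32, 1.34 and 1.70 on plates 3, 4 and 5) and 1.40 in VE-like cells (1.32, 1.25 and 1.65), and the plates of these compartments overlapped. Epi-like cells averaged 0.541 TP10k (0.499, 0.394 and 0.729). In 2D the order was iXEN at 1.18, iTSC at 0.956 and ESC at 0.289 TP10k, so that the pluripotent group was the lowest in either culture. VE-like and ExE-like cells were 2.59-fold and 2.68-fold above Epi-like cells, and iXEN and iTSC were 4.07-fold and 3.31-fold above ESC. *Itgb1* was found in 96.5% of VE-like cells, 92.6% of ExE-like cells and 67.8% of Epi-like cells. In ESC it was found in 95.1% of cells although their mean was lower than in Epi-like cells. The ExE-like level was similar in cells led by the ExE list (1.42 TP10k) and in those led by the VE list (1.73 TP10k).

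*Itgb5* (chr16:33829665-33949338, plus strand), a partner of *Itgav*, had the reverse pattern of *Itgb1* in the endodermal groups. It averaged 0.311 TP10k in Epi-like cells (0.328, 0.260 and 0.347 on plates 3, 4 and 5), 0.233 in ExE-like cells (0.176, 0.353 and 0.171) and 0.0941 in VE-like cells (0.0889, 0.0572 and 0.141). In 2D it stood at 0.246 TP10k in iTSC, 0.214 in ESC and 0.0418 in iXEN. Epi-like cells were 3.31-fold above VE-like cells, and ESC and iTSC were 5.13-fold and 5.88-fold above iXEN. Epi-like and ExE-like plates overlapped, and the ESC and iTSC means fell within the range of the ExE-like plates. The ratio of ExE-like to VE-like cells, 2.48-fold, rested on plate 4, without which VE-like cells stood at 0.651 of the ExE-like mean. *Itgb5* was found in 38.5% of Epi-like, 40.8% of ExE-like and 19.7% of VE-like cells.

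The remaining beta subunits were rare. *Itgb4* (chr11:115974709-116008412, plus strand), the partner of *Itga6* in hemidesmosomes, averaged from 0.0140 TP10k in VE-like cells to 0.0707 in iTSC, with Epi-like cells at 0.0499, iXEN at 0.0427, ESC at 0.0346 and ExE-like cells at 0.0336. The Epi-like plates ranged from 0.0161 to 0.0887 TP10k and covered the means of all groups but VE-like cells, so that this order does not stand out from the spread between plates. *Itgb4* was found in 8.28% to 14.2% of 3D cells and in 33.8% to 50.4% of 2D cells, and shares 537 exon bases with the noncoding *B230344G16Rik* on the opposite strand. *Itgb3* (chr11:104608000-104670476, plus strand), which is best known from platelets and osteoclasts, was highest in ESC at 0.0230 TP10k and lowest in VE-like cells at 0.000642 TP10k. It was found in 4 VE-like cells (1.27%, 95% CI 0.347% to 3.22%), 10 Epi-like cells (3.18%) and 29 ExE-like cells (8.22%). In ESC it was found in 46.5% of cells, and in 31% when at least 1 TPM was required. Among cells with 5500 to 8500 genes, which leaves 85 Epi-like cells and 20 ESC, the order turned, with Epi-like cells 2.69-fold above ESC.

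*Dag1* (chr9:108204634-108263958, minus strand), the only receptor of the set that is not an integrin, marked the trophoblast-like groups. Its mean was 0.756 TP10k in ExE-like cells (0.901, 0.683 and 0.678 on plates 3, 4 and 5) and 0.811 in iTSC. Epi-like cells averaged 0.265 TP10k (0.300, 0.272 and 0.222) and VE-like cells 0.197 (0.204, 0.204 and 0.182), with 0.349 in ESC and 0.250 in iXEN. Every ExE-like plate was above every plate of the other compartments, and the iTSC mean fell within the ExE-like range. The ExE-like mean was 2.86-fold that of Epi-like cells (2.51-fold to 3.05-fold on single plates) and 3.83-fold that of VE-like cells (3.35-fold to 4.41-fold), and iTSC were 2.32-fold above ESC and 3.24-fold above iXEN. *Dag1* was found in 89% of ExE-like (95% CI 85.2% to 92%), 68.8% of Epi-like and 66.3% of VE-like cells. In the ExE-like columns it stood at 0.767 TP10k in cells led by the ExE list and at 0.420 in cells led by the VE list.

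**Figure D1:**
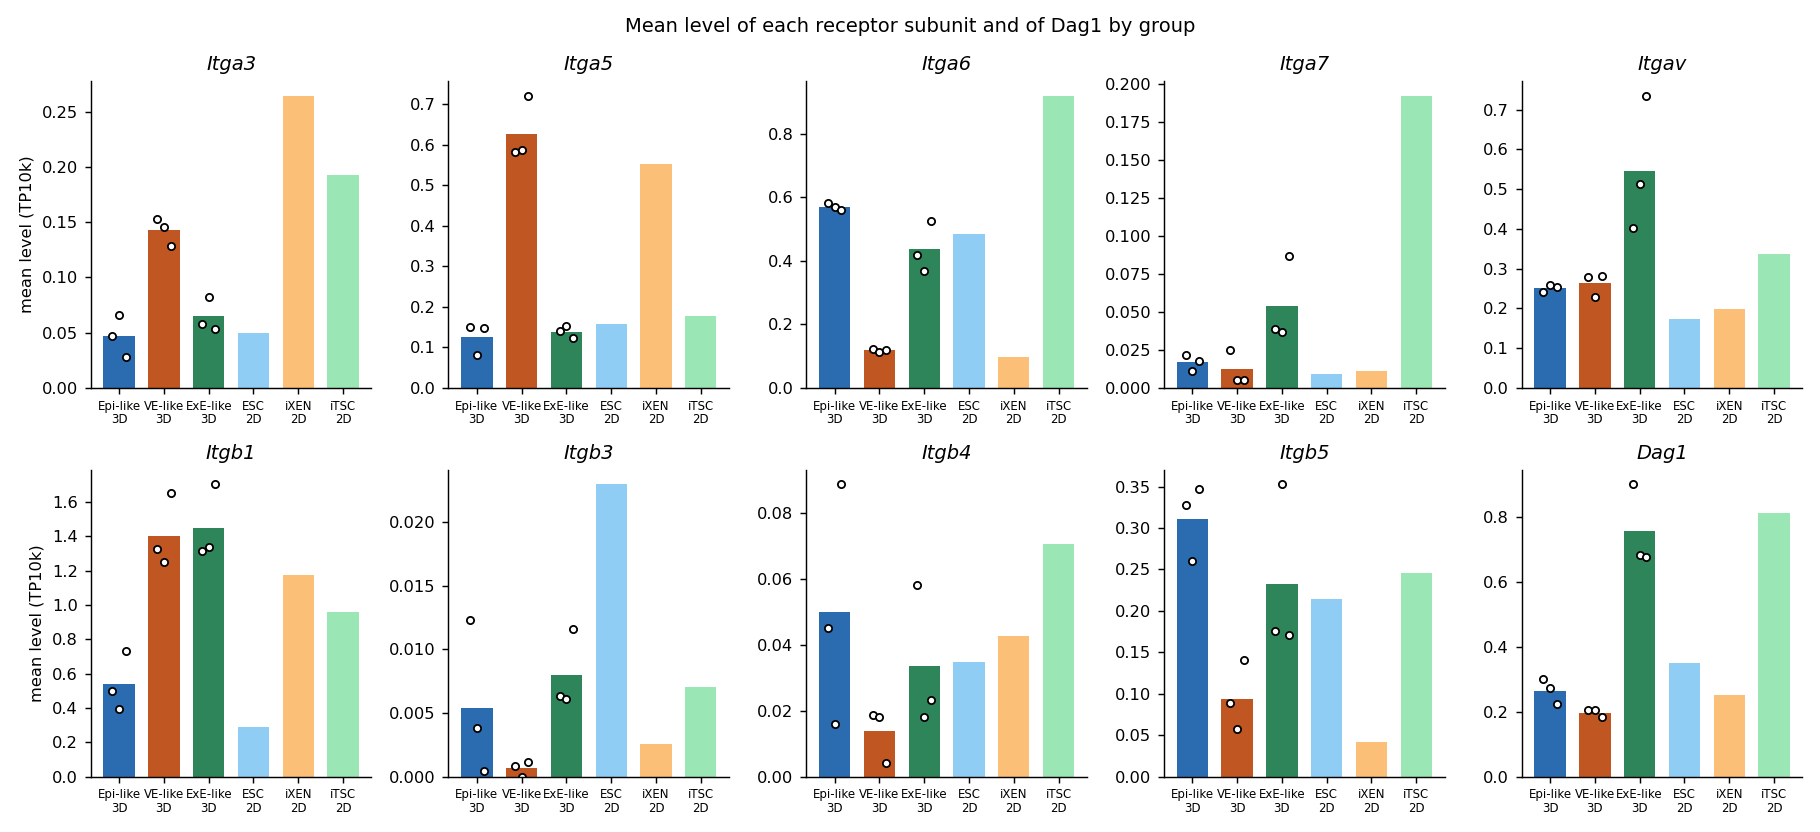
Mean level (TP10k, bars) of the 10 receptor genes in the 6 groups, with the values on plates 3, 4 and 5 as circles for the 3D groups. *Itga5* is high in VE-like cells and iXEN (0.626 and 0.554 TP10k), *Itga6* is low in both (0.118 and 0.0971), and *Dag1* is high in ExE-like cells and iTSC (0.756 and 0.811).

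The single cells of a group were spread widely around its mean. For *Itgb1* in VE-like cells, the lower quartile, median and upper quartile were 0.688, 1.15 and 1.80 TP10k, and the highest cell reached 7.69 TP10k. *Itga5* in VE-like cells had a median of 0.544 TP10k and a highest cell of 3.74, whereas its median was 0 in Epi-like and ExE-like cells. *Dag1* had a median of 0.544 TP10k in ExE-like cells, 0.173 in Epi-like and 0.114 in VE-like cells. A median of 0 held in all 3 compartments for *Itga3*, *Itga7*, *Itgb3*, *Itgb4* and *Itgb5*, so that their means came from the minority of cells in which they were found. Of the 10 genes, a median of 4 was found per cell in each 3D compartment, 7 in ESC and iTSC and 6 in iXEN. Across the cells of a group, Spearman's rank correlation between any of the 45 pairs of these genes lay between -0.203 and 0.272, with medians of 0.00173 to 0.0605, and the cells share library and depth. No pair thus varied closely together from cell to cell. For genes found in few cells most values were tied at 0, which limits this reading.

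**Figure D2:**
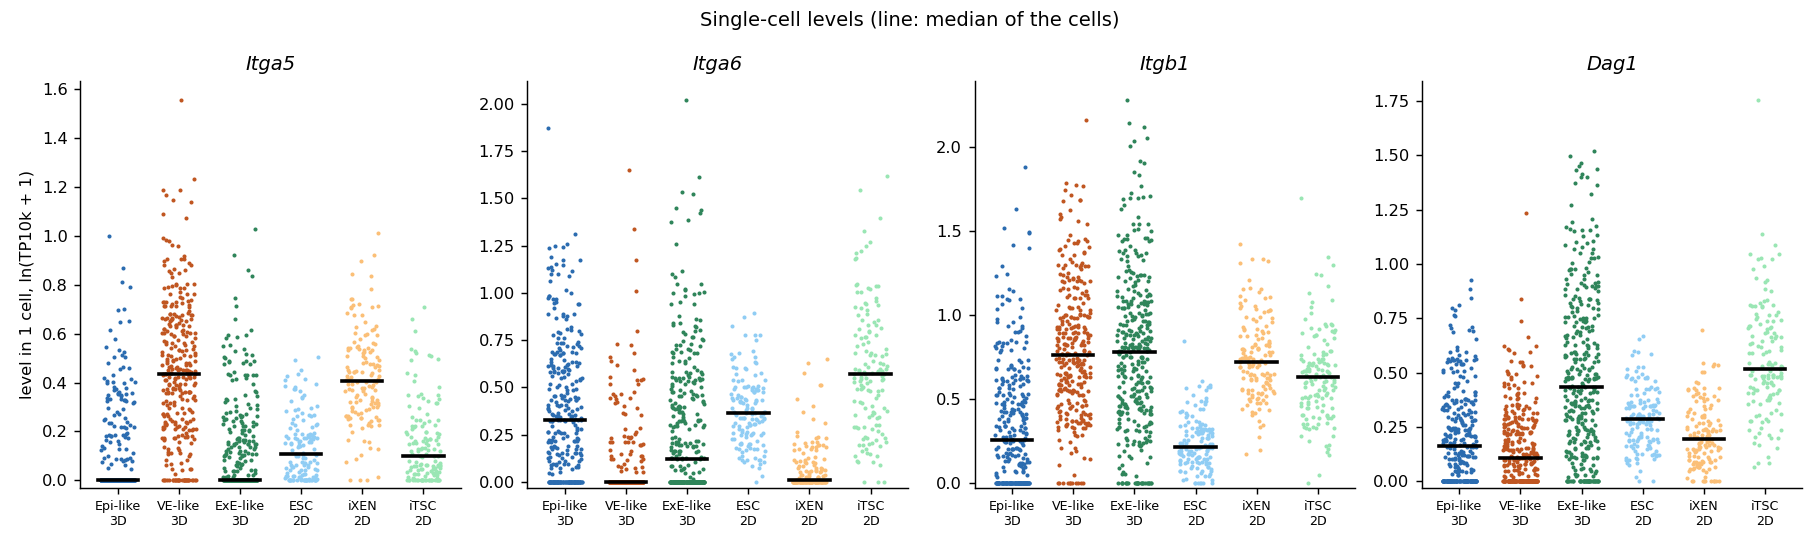
Level of *Itga5*, *Itga6*, *Itgb1* and *Dag1* in single cells, as ln(TP10k + 1) on the vertical axis, in the 6 groups. Each point is 1 cell and the line is the median of the cells. In TP10k, the median of *Itga5* is 0.544 in VE-like cells and 0 in Epi-like and ExE-like cells.

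To see which receptors separated the compartments of the co-culture, a gene was counted when its mean differed more than 2-fold, on the same side of 1 on plates 3, 4 and 5, provided that 10% or more of the cells in either of the compared groups had the gene. Between Epi-like and VE-like cells 7 of the 10 genes passed this filter and 5 were counted, with *Itga3*, *Itga5* and *Itgb1* higher in VE-like and *Itga6* and *Itgb5* higher in Epi-like cells. By the same rule 32.6% of all 10662 genes compared were counted, 16.3% higher in VE-like and 16.3% higher in Epi-like cells. Between Epi-like and ExE-like cells 4 of 9 were counted, all higher in ExE-like cells (*Itga7*, *Itgav*, *Itgb1* and *Dag1*), beside 24.5% of all genes (15.5% higher in ExE-like and 8.98% higher in Epi-like cells). Between VE-like and ExE-like cells 7 of 9 were counted, beside 24.3% of all genes (8.86% higher in VE-like and 15.5% higher in ExE-like cells). *Itga3* and *Itga5* were higher in VE-like cells, and *Itga6*, *Itga7*, *Itgav*, *Itgb5* and *Dag1* in ExE-like cells. In both comparisons with ExE-like cells, *Itga7* passed the filter only through ExE-like cells, where it was higher. It was found in 20.4% of them, beside 8.60% of Epi-like and 8.25% of VE-like cells, so that the filter favoured this direction. *Itgav* and *Dag1* were within 2-fold between Epi-like and VE-like cells, *Itgb1* and *Itgb4* had no such difference between VE-like and ExE-like cells, and neither had *Itga3*, *Itga5*, *Itga6*, *Itgb4* and *Itgb5* between Epi-like and ExE-like cells. On the log2 scale, the median difference of the genes compared was -0.06 for Epi-like minus VE-like cells (0.07 over all genes), -0.46 for Epi-like minus ExE-like cells (-0.10) and -1.26 for VE-like minus ExE-like cells (-0.15). Since the ExE-like columns held cells led by the Epi or VE list, the 2 comparisons with ExE-like cells were also made with cells led by their own list alone, which gave 4 and 7 genes. In the latter, *Itga3* was no longer counted and *Itgb4* was. In cells with at least 4000 genes, 4 genes were counted between VE-like and ExE-like cells, without *Itga3*, *Itgav* and *Itgb5*.

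**Figure D3:**
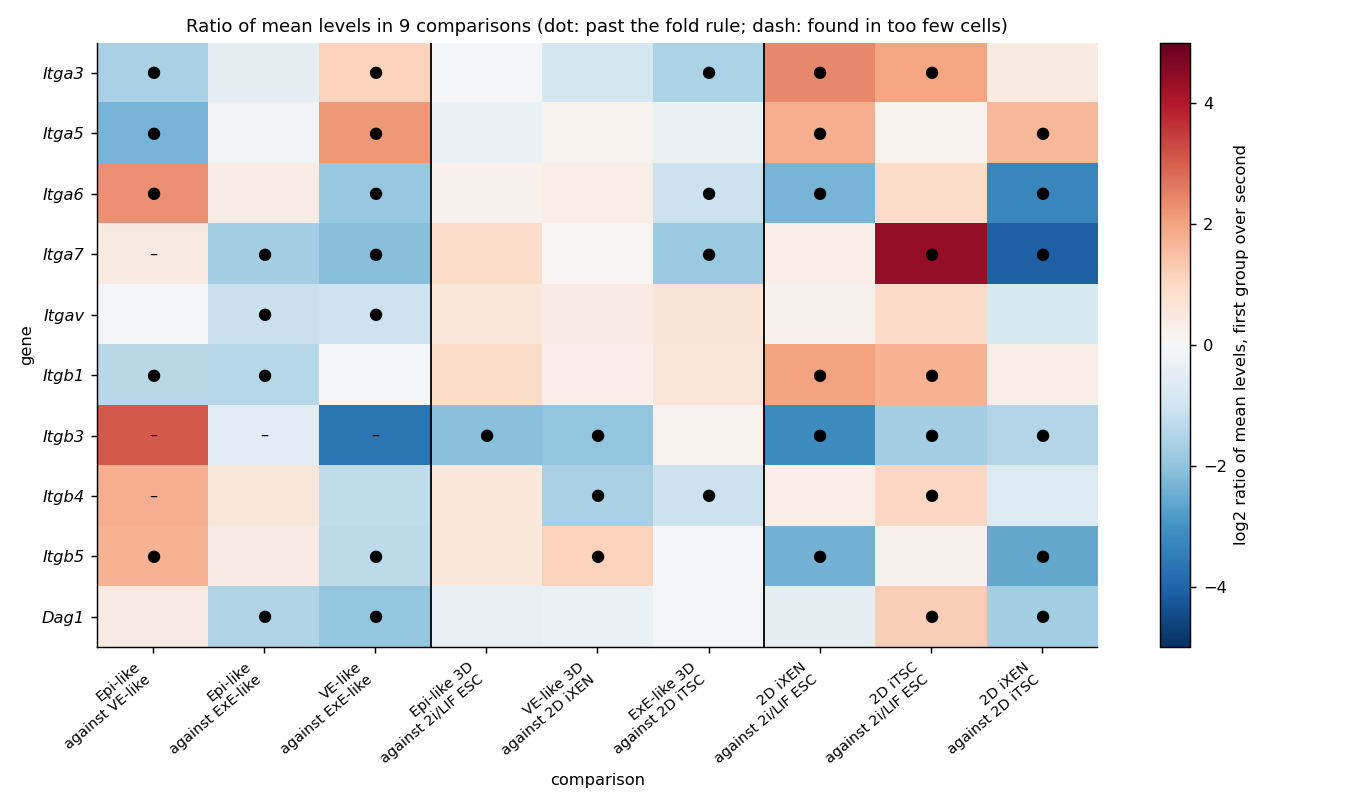
Log2 ratio of mean levels, group named first over the other, of the 10 genes (lines) in 9 comparisons (columns), in red where the former is higher and in blue where it is lower. A dot marks a gene counted by the 2-fold rule and a dash a gene found in too few cells. *Itga6* stands at 2.27 and *Itga5* at -2.31 for Epi-like against VE-like cells.

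The same lineages in 2D gave a comparison that shared no cells with the co-culture. Each 2D culture had its own line, medium and plate, and ESC alone had no DOX. These differed together with the lineage and cannot be told apart from it. Between iXEN and ESC 6 of 10 genes were past 2-fold, beside 39.5% of all genes (20.4% higher in iXEN and 19.2% higher in ESC), with *Itga3* (5.35-fold), *Itgb1* (4.07-fold) and *Itga5* (3.52-fold) higher in iXEN and *Itgb3* (9.06-fold), *Itgb5* (5.13-fold) and *Itga6* (5.00-fold) higher in ESC. Between iTSC and ESC there were also 6, beside 33.5% of all genes (22.3% higher in iTSC and 11.1% higher in ESC). *Itga7*, *Itga3* (3.90-fold), *Itgb1* (3.31-fold), *Dag1* (2.32-fold) and *Itgb4* (2.04-fold) were higher in iTSC, and *Itgb3* (3.25-fold) was higher in ESC. Among cells with 5500 to 8500 genes, the *Itgb3* mean of iXEN was 0.507 of that in ESC, which is within 2-fold, and that of iTSC was 3.96-fold above ESC, with only 20 ESC in this range. Between iXEN and iTSC *Itga5* (3.13-fold) was higher in iXEN, and *Itga7*, *Itga6* (9.47-fold), *Itgb5* (5.88-fold), *Dag1* (3.24-fold) and *Itgb3* (2.78-fold) were higher in iTSC, which makes 6 genes, beside 33.3% of all genes (12.2% higher in iXEN and 21.1% higher in iTSC). Set side by side, all 5 genes counted between VE-like and Epi-like cells went the same way between iXEN and ESC (100%, and 64.6% for all genes). They made up 83.3% of the 6 genes counted in 2D, beside 41.6% for all genes. Of the 4 genes counted between ExE-like and Epi-like cells, 3 did so between iTSC and ESC (75.0%, and 49.4% for all genes), and *Itgav* missed 2-fold there at 1.95-fold. Of the 7 genes counted between VE-like and ExE-like cells, 5 did so between iXEN and iTSC (71.4%, and 55.7% for all genes), the others being *Itga3* and *Itgav*. None of the 10 genes was past 2-fold in opposite directions.

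For each lineage, the co-culture was also set against the 2D culture of the same ESC line. Between Epi-like cells and ESC 1 of 10 genes was past 2-fold, *Itgb3*, which was 4.25-fold lower in Epi-like cells, beside 20.3% of all genes (11.1% higher in Epi-like cells and 9.21% higher in ESC). Its Epi-like mean was 0.235 of that in ESC, and 0.0922 without plate 3. It passed the filter only through ESC, with 46.5% of cells beside 3.18% of Epi-like cells, which favoured this direction. *Itgb1* was higher in Epi-like cells by 1.87-fold (1.36-fold to 2.52-fold on single plates), and without plate 4 by 2.14-fold. Between VE-like cells and iXEN 3 genes were past 2-fold, beside 13.3% of all genes (4.38% higher in VE-like cells and 8.92% higher in iXEN). *Itgb5* was 2.25-fold higher in VE-like cells (1.75-fold without plate 5, and 1.17-fold in means without the highest 5% of cells), and *Itgb3* and *Itgb4* were 3.96-fold and 3.05-fold lower, at a level of few cells. Without plate 4 *Itgb3* stood at 0.383 of the iXEN mean, and without plate 5 at 0.162. Only iXEN brought *Itgb3* and *Itgb4* past the filter, with 12.8% and 37.6% of cells beside 1.27% and 9.21% of VE-like cells. None of the 3 genes was past the rule among cells with 5500 to 8500 genes. *Itga3* missed the threshold, being 1.85-fold lower in VE-like cells. Among cells with 5500 to 8500 genes it passed, at 0.489 of the iXEN mean, and so did *Itga7*, which was 2.60-fold higher in VE-like cells. In means without the highest 5% of cells both passed as well, but *Itga7* then stood at 0.366 of the iXEN mean. Between ExE-like cells and iTSC 4 genes were past 2-fold, beside 24.8% of all genes (10.2% higher in ExE-like cells and 14.5% higher in iTSC). All were lower in ExE-like cells, namely *Itga7* (3.58-fold), *Itga3* (2.98-fold), *Itga6* (2.11-fold) and *Itgb4* (2.11-fold). The values of *Itga6* and *Itgb4* depended on plate 4, without which they stood at 0.511 and 0.584 of the iTSC mean. Without plate 3, *Itgb4* stood at 0.292. With ExE-like cells led by the ExE list alone, these values were 0.522 and 0.614. *Dag1* (1.07-fold), *Itgb5* (1.06-fold) and *Itga5* (1.27-fold) were closer in level between ExE-like cells and iTSC.

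The transcript levels of the receptor subunits were summed over the 5 alpha and the 4 beta genes. Further alpha subunits are not in the sums, among them *Itga2b* and *Itga1*, which averaged 0.139 and 0.0855 TP10k in iTSC. *Itga6* took 56.3% of the summed alpha level of Epi-like cells (55.5% to 57.7% over the plates), *Itga5* took 53.9% in VE-like cells (50.1% to 57.4%), and in ExE-like cells *Itgav* took 44% (38% to 48.2%) and *Itga6* 35.2% (31.9% to 39.5%). Over all plates each compartment thus had another leading alpha subunit, but on plate 3 *Itga6* led in ExE-like cells as well (0.417 TP10k, against 0.401 for *Itgav*). In 2D, *Itga6* led in ESC (55.6%) and iTSC (50.6%) and *Itga5* in iXEN (49.2%), and *Itgav* took 18.5% in iTSC. The summed alpha level differed little, from 0.873 TP10k in ESC to 1.24 in ExE-like cells, apart from 1.82 in iTSC. *Itgb1* took 92.8% of the summed beta level in VE-like cells, 93.1% in iXEN, 84.1% in ExE-like cells and 74.7% in iTSC. In Epi-like cells and ESC its share was 59.6% and 51.5%, and *Itgb5* held 34.3% and 38.2%. The summed beta level was 0.561 TP10k in ESC, 0.907 in Epi-like cells and 1.26 to 1.72 in the other groups.

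**Figure D4:**
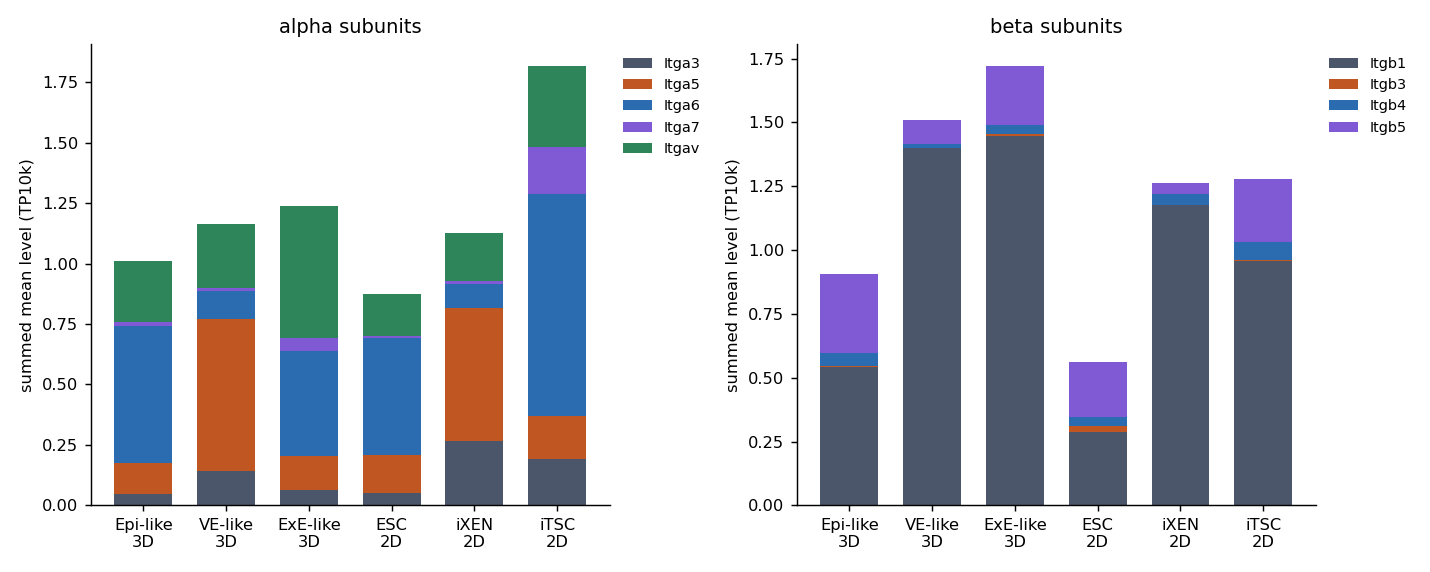
Stacked bars of the mean levels (TP10k) of the 5 alpha genes (left) and the 4 beta genes (right), summed in each of the 6 groups. *Itga5* makes up 53.9% of the alpha sum in VE-like cells and 49.2% in iXEN, *Itga6* 56.3% in Epi-like cells, and *Itgb1* 92.8% and 93.1% of the beta sum in the endodermal groups.

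Since integrins act as dimers, the cells in which both subunits of a known dimer were found were counted. *Itga5* and *Itgb1*, the fibronectin receptor, were found together in 87.6% of the VE-like cells (95% CI 83.5% to 91%), 39.7% of ExE-like cells (34.5% to 45%) and 22.9% of Epi-like cells (18.4% to 28%). *Itga6* and *Itgb1* were found together in 52.2% of Epi-like (46.5% to 57.9%), 51.8% of ExE-like (46.5% to 57.2%) and 21.6% of VE-like cells (17.2% to 26.5%). For the fibronectin receptor VE-like cells were above the others on every plate, and for the laminin receptor they were below. *Itgav* with *Itgb1* was found in 63.7% of ExE-like cells, 45.1% of VE-like cells and 29.6% of Epi-like cells, and *Itgav* with *Itgb5* in 31.2%, 11.7% and 17.5%. *Itga3* with *Itgb1* was most frequent in VE-like cells (41.9%), and *Itga7* with *Itgb1* in ExE-like cells (19.5%). The hemidesmosome pair of *Itga6* and *Itgb4* was found in 8.50% of ExE-like, 6.37% of Epi-like and 3.49% of VE-like cells, and *Itgav* with *Itgb3* in at most 4.82% of a compartment.

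In 2D, where more genes are found per cell, *Itga5* and *Itgb1* were found together in 97.9% of iXEN, 81.6% of iTSC and 79.6% of ESC, and *Itga6* and *Itgb1* in 97.2% of iTSC, 95.1% of ESC and 51.1% of iXEN. The hemidesmosome pair reached 48.9% of iTSC, 33.8% of ESC and 24.1% of iXEN. In 3D cells with 5500 to 8500 genes, *Itga5* and *Itgb1* were found together in 97.2% of VE-like, 53% of ExE-like cells and 32.9% of Epi-like cells, and *Itga6* and *Itgb1* in 25.9%, 64.5% and 76.5%. The order of the compartments at similar depth was thus the same for both receptors, with a wider gap between Epi-like and ExE-like cells for the laminin receptor. Transcripts of both subunits do not show that the dimer is present on the cell surface.

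**Figure D5:**
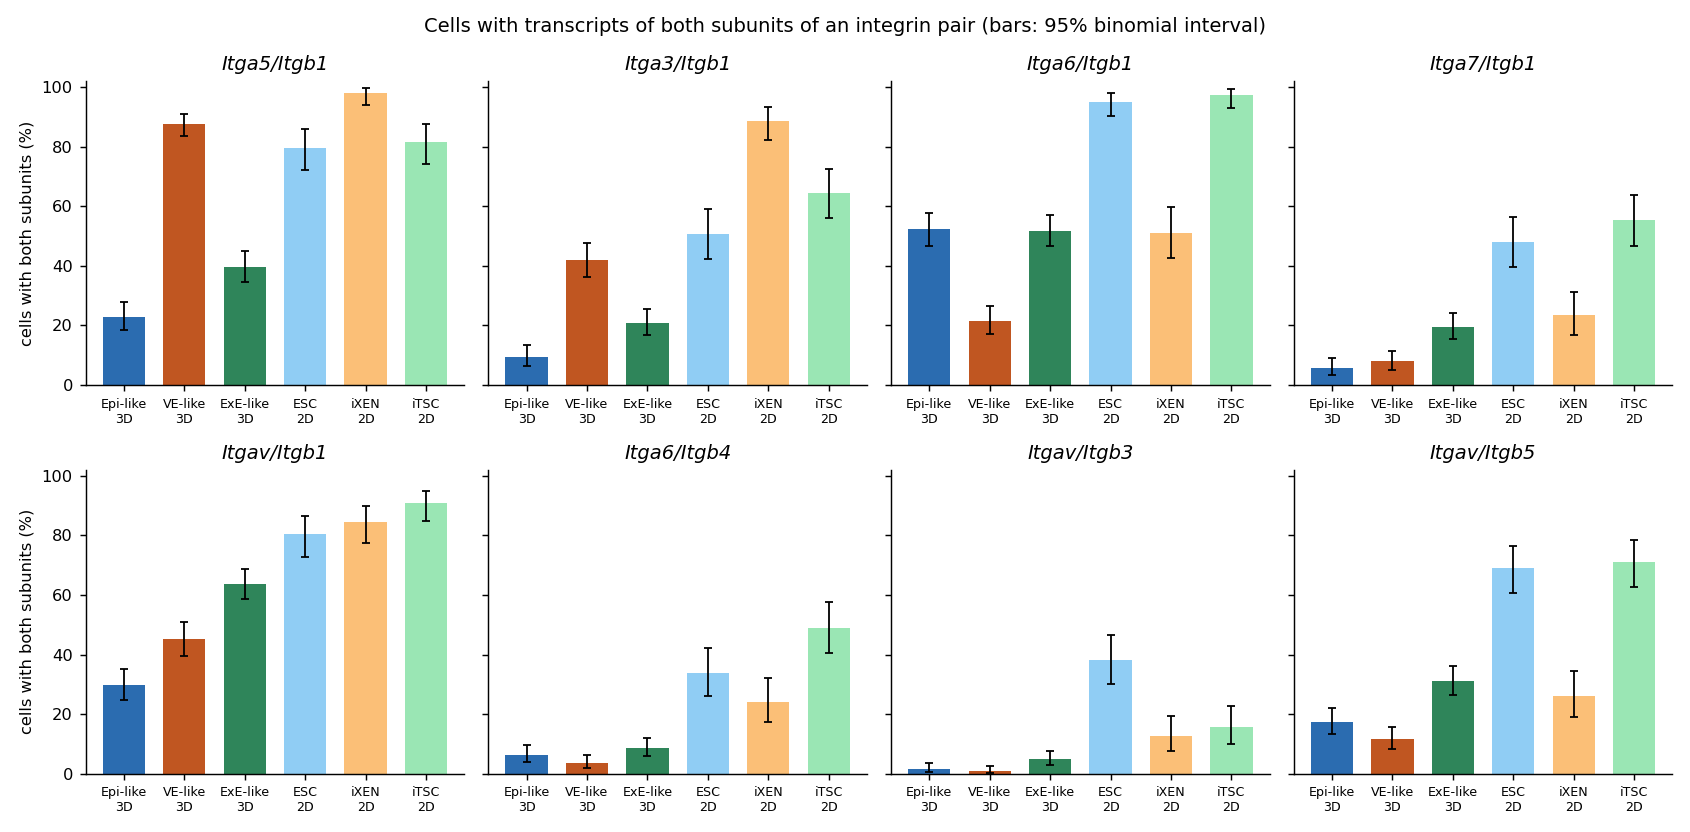
Share of cells (%) in which both subunits of a known dimer were found, by group, with exact 95% confidence intervals. The pair of *Itga5* and *Itgb1* reaches 87.6% of VE-like cells but 22.9% of Epi-like cells, and that of *Itga6* and *Itgb1* 21.6% and 52.2%.

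The rest of the integrin family was weakly expressed. Of 16 further subunits in the table, 3 passed the filter between Epi-like and VE-like cells. There were 5 between Epi-like and ExE-like cells and 3 between VE-like and ExE-like cells. Of these, 1, 2 and 2 were past 2-fold, beside 32.6%, 24.5% and 24.3% of all genes. The 6 subunits that 25% or more of the cells in some group had were *Itga1*, *Itga2b*, *Itga4*, *Itgae*, *Itgal* and *Itgb7*. *Itgb7*, a beta subunit known from lymphocytes, averaged 0.0544 TP10k in Epi-like cells, 5.64-fold above VE-like and 17.9-fold above ExE-like cells, and 0.0601 in ESC. *Itgae*, its alpha partner, was also highest in ESC (0.0242 TP10k) and Epi-like cells (0.0176 TP10k), and so was *Itgal*, the alpha subunit of a leukocyte integrin (0.0410 and 0.0160 TP10k). *Itga1*, a collagen receptor subunit, and *Itga2b*, the platelet partner of *Itgb3*, were highest in iTSC at 0.0855 and 0.139 TP10k, which was 39.2-fold and 11.3-fold above ESC. *Itga4* stayed at or below 0.0177 TP10k in every group.

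Integrins connect to actin through adaptor proteins inside the cell. Of 19 adaptor genes, 16 passed the filter between Epi-like and VE-like cells, with 7 higher in VE-like and 1 in Epi-like cells (median log2 difference -0.62, against 0.07 over all genes). Between Epi-like and ExE-like cells 7 of 16 were higher in ExE-like cells and 0 in Epi-like cells (median -0.80, against -0.10). Between VE-like and ExE-like cells 1 of 16 was higher in VE-like and 2 were higher in ExE-like cells. The shares of all genes past the rule were 32.6%, 24.5% and 24.3% in these comparisons, in the order given. *Zyx*, which encodes the focal adhesion protein zyxin, averaged 1.06 TP10k in VE-like and 1.08 in ExE-like cells, against 0.217 in Epi-like cells, and 1.74 in iXEN against 0.0628 in ESC. *Ilk*, the integrin-linked kinase, stood at 2.13, 1.75 and 0.678 TP10k in VE-like, ExE-like and Epi-like cells. *Fermt2*, which encodes the integrin activator kindlin-2, was highest in ExE-like cells and iTSC (1.99 and 2.49 TP10k) and lower in VE-like cells (0.562 TP10k). The actin crosslinker *Actn4* was within 2-fold in all comparisons of the 3D compartments, with means of 2.53 to 3.06 TP10k.

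Of the genes that work with *Itgb4* in hemidesmosomes, *Cd151* and *Dst* were expressed well above it in every group. *Cd151*, a tetraspanin that binds laminin receptors, averaged 1.14 TP10k in Epi-like cells, 2.41 in VE-like cells and 1.93 in ExE-like cells. *Plec*, which links *Itgb4* to keratin filaments, was highest in iTSC at 0.954 TP10k, against 0.179 in ExE-like cells, and at most 0.264 elsewhere. In Epi-like cells *Plec* averaged 0.0947 TP10k, and its plates overlapped those of *Itgb4*. *Dst*, a further linker, ranged from 0.409 to 0.863 TP10k, and *Col17a1*, a transmembrane collagen of hemidesmosomes, did not exceed 0.0247 TP10k. Of these 4 genes, 3 were higher in iTSC than in ESC, beside 22.3% of all genes.

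For dystroglycan, the members of its membrane complex and the enzymes that add its sugars were described by counts. Of 13 complex genes, 4 were higher in Epi-like than in ExE-like cells and 2 lower, among 9 compared (median 0.53, against -0.10 over all genes). Of 8 compared between Epi-like and VE-like cells, 2 were higher in Epi-like and 1 in VE-like cells. Of 7 compared between VE-like and ExE-like cells 2 were higher in either group (median -0.01, against -0.15). Over all genes, 24.5%, 32.6% and 24.3% were past the rule in these comparisons, in the order given. *Dmd*, which encodes the anchor dystrophin, averaged 0.296 TP10k in Epi-like, 0.181 in VE-like and 0.0272 in ExE-like cells, so that it was lowest where *Dag1* was highest. Utrophin (*Utrn*), its homologue, varied less, from 0.383 to 0.557 TP10k over the 3 compartments. *Sgce*, a sarcoglycan, was higher in ExE-like cells (0.382 TP10k) than in Epi-like (0.0570) and VE-like cells (0.0841), and *Dtnb*, a dystrobrevin, stood at 0.887, 0.931 and 0.503 TP10k in the same order of groups. Of 11 glycosylation genes, all of which passed the filter, 1 was higher in VE-like than in Epi-like cells (*B4gat1*), 2 were higher in ExE-like than in Epi-like cells (*Pomt2* and *B4gat1*), and 1 was higher in ExE-like than in VE-like cells (*Pomgnt1*). None was higher in the opposite direction in these 3 comparisons. These counts lay below the shares over all genes, which were 32.6%, 24.5% and 24.3%. *Pomgnt1* averaged 0.648 TP10k in ExE-like cells, 0.350 in Epi-like and 0.249 in VE-like cells. The other leading genes of this list, *Tmem5* (0.571 to 0.903 TP10k) and *B3galnt2* (0.263 to 0.381 TP10k), were within 2-fold between the compartments.

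Among 9 other matrix receptors, the syndecan *Sdc4* had the highest level, with 5.47 TP10k in ExE-like, 4.10 in VE-like and 2.80 in Epi-like cells. Between Epi-like and VE-like cells 4 of 6 were higher in Epi-like cells (*Sdc1*, *Sdc2*, *Ddr1* and *Bcam*) and 1 in VE-like cells (*Sdc3*). Of 6 compared with ExE-like cells, 1 was higher and 2 were lower in Epi-like cells. In VE-like cells, 1 was higher and 3 were lower than in ExE-like cells. The shares over all genes were 32.6%, 24.5% and 24.3% in these comparisons, in the order given. *Bcam*, a receptor of laminin alpha 5, averaged 0.154 TP10k in Epi-like cells against 0.0341 in VE-like and 0.0207 in ExE-like cells, and 0.403 in ESC and 0.490 in iTSC. *Sdc1* stood at 0.154 TP10k in Epi-like, 0.0461 in VE-like and 0.220 in ExE-like cells, and *Sdc2* at 0.0478, 0.0158 and 0.154.

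Many ligands of these receptors were higher in VE-like cells. Of 19 ligand genes, 12 passed the filter between Epi-like and VE-like cells, with 8 higher in VE-like and 2 in Epi-like cells (median log2 difference -2.55, against 0.07 over all genes). Between VE-like and ExE-like cells 8 of 14 were higher in VE-like and 5 in ExE-like cells. Between Epi-like and ExE-like cells 2 of 14 were higher and 5 lower in the former. Past the rule were 32.6%, 24.3% and 24.5% of all genes in these comparisons, in the order given. *Lamb1*, *Lamc1* and *Col4a1*, subunits of laminins and of collagen IV, averaged 5.86, 9.22 and 16.1 TP10k in VE-like cells, against 0.188, 0.650 and 0.0573 in Epi-like cells. *Fn1*, which encodes fibronectin and was chosen after its values were seen as the ligand of *Itga5*, averaged 2.30 TP10k in Epi-like, 0.686 in ExE-like and 0.196 in VE-like cells, and 3.13 in ESC, 0.453 in iXEN and 0.506 in iTSC. Epi-like cells were 11.7-fold above VE-like cells in *Fn1* and 4.96-fold below them in *Itga5*. *Lama1*, chosen in the same way, was found at 3.17 TP10k in VE-like cells and 3.21 in iXEN, and at most at 0.0949 elsewhere. *Lama5*, likewise, was highest in iTSC (3.89 TP10k), followed by ExE-like cells (1.38 TP10k). *Spp1*, which encodes osteopontin, a ligand of *Itgav* integrins, averaged 17 TP10k in ExE-like, 12.4 in Epi-like and 7.57 in VE-like cells, but 24.1 in ESC, 0.813 in iXEN and 0.229 in iTSC. In ExE-like cells it was 74.2-fold above iTSC.

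The genes whose pattern was most like that of each receptor were sought among 11962 genes that 25% or more of the cells in some group had, with the Pearson coefficient between mean values of ln(TP10k + 1) over 12 units (3 compartments on 3 plates and 3 cultures). The units share pool, plates and depth, and the values are a description. *Itga5* was closest to *Plod2*, a lysyl hydroxylase of collagen (0.994), and *Fam198b* (0.992). *Itga6* was closest to *Ctnnal1* (0.977) and *Ctbp2* (0.971), *Itga3* to *Efna4* (0.976) and *Efna3* (0.974), which encode ephrins, and *Itga7* to *Fndc3c1* (0.992) and *Procr* (0.984). *Itgav* was closest to *Hoxc6* (0.965) and *Papss2* (0.963), *Itgb1* to *Acd* (0.969) and *Tmem30a* (0.968), and *Dag1* to *Lclat1* (0.978) and *Psap* (0.978). For the other beta subunits the closest genes were less alike, with *Polr2g* (0.937) and *Psmd2* (0.926) for *Itgb3*, *Mcmdc2* (0.908) and *Zfp930* (0.901) for *Itgb4*, and *Jarid2* (0.916) and *Sars2* (0.916) for *Itgb5*. Among the 10 genes themselves, *Itgb5* and *Itga6* were the most alike (0.817), followed by *Dag1* and *Itgav* (0.744), and *Itga5* was least like *Itga6* (-0.817) and *Itgb5* (-0.81).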

How the data were processed

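Single cells of 1 pool of RtL-embryoids (982 cells kept) and of 3 2D cultures (424 cells kept) were measured by SMART-seq2. The authors demultiplexed the reads with bcl2fastq 2.20, used kallisto for pseudoalignment against Gencode vM16 transcripts (GRCm38) and tximport for sums per gene, and deposited TPM for 20999 genes in 1931 wells. TPM are estimates that correct for transcript length, so isoforms of a gene are summed and reads of overlapping genes can be shared between them. Of the wells, 39 held no values. Wells with fewer than 2500 genes above 0 were left out, and each remaining cell was scaled to a sum of 10000 (TP10k), which removes differences in the TPM left after the authors' gene filters (108692 to 782286 per 3D cell). TPM keep no read number, so depth was taken as genes above 0.

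Groups followed the plates and well columns of the labels. The lineage of the 3D columns was not stated with the samples, was assumed for each block of columns and was held against marker lists. Means over cells were compared as ratios, with no test, as each group was 1 sample. A gene was compared when 10% or more of the cells in either group had it, and counted when past 2-fold on the same side on plates 3, 4 and 5. The rule was checked on ExE-like cells split at random, with some genes that 25% or more of them had raised past 2-fold in 1 part. This does not cover genes found in fewer cells. Named were the 10 genes, every other integrin subunit that 25% or more of the cells in some group had, the 4 genes with the highest level of each other list, and for each of the 10 genes the 2 closest in pattern. *Pomt2*, *Ddr1*, *Sdc3*, *Fn1*, *Lama1* and *Lama5* were named after their values were seen, and so were the marker genes given as examples. The 10 genes, the lists and the rules were chosen with earlier results of these data known. *Itga10* was not a row of the table, and 1 gene of the glycosylation list is not reported here and was left out of its counts. Alternatives were other minimums of genes per cell, TPM without scaling, means without the highest 5% of cells, an offset of 0.1 TP10k, other filters on low values, 3D cells led by their own lineage list, detection from 1 TPM, and leaving out each plate. Positions are from Gencode vM21 (GRCm38). Python 3.11.15, numpy 2.4.6, pandas 2.3.3, scipy 1.17.1 and matplotlib 3.10.9 were used.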

Additional observations from a re-analysis of the deposited data

Results flagged for a closer look

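For 3 alpha subunits, the ratio of the 3D mean to the 2D mean lay on opposite sides of 1 in different lineages, on every plate. The difference between lineages was not tested, since each group was 1 sample. *Itga5* stood at 0.803 in Epi-like cells over ESC and at 0.787 in ExE-like cells over iTSC, but at 1.13 in VE-like cells over iXEN. All 3 ratios were within 2-fold, and in cells with 5500 to 8500 genes they were 1.12, 0.847 and 1.21, so that the Epi-like ratio changed side. *Itga6* stood at 1.17 in Epi-like cells over ESC and 1.22 in VE-like cells over iXEN, against 0.474 in ExE-like cells over iTSC. In cells with 5500 to 8500 genes these were 1.15, 0.755 and 0.476, and the VE-like ratio changed side. *Itga7* stood at 1.83 in Epi-like cells over ESC and at 0.279 in ExE-like cells over iTSC, and at 4.18 and 0.373 in cells with 5500 to 8500 genes. The level of *Itga7* was low in both Epi-like cells and ESC (0.0167 and 0.00915 TP10k).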

How the results depend on the processing

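No paired analysis was possible because no test was made and the labels number no replicates. Of 87 counts of genes past 2-fold under the alternatives, 74 were within 1.5 times the reported count. With an offset of 0.1 TP10k, which by construction lowers the ratios of weakly expressed genes, the count was 2 between Epi-like and ExE-like cells, 3 between VE-like and ExE-like cells, 0 between Epi-like cells and ESC, 0 between VE-like cells and iXEN, 0 between ExE-like cells and iTSC and 3 between iTSC and ESC. A minimum of 4000 genes gave 4 between VE-like and ExE-like cells. Between Epi-like cells and ESC, cells with 5500 to 8500 genes gave 0, means without the highest 5% of cells 4, and leaving out 1 plate 1 to 3. Between ExE-like cells and iTSC, TPM as deposited gave 2, cells led by their own list 2, and leaving out 1 plate 2 to 4. The causes of these shifts were otherwise not tested. Of 390 recomputed values of ratios past 2-fold as reported, 51 no longer passed, 2 changed direction and the others stayed past it. Of 479 recomputed values of ratios not past it, 24 became so and 39 lay on the other side of 1. The 2 that changed direction concerned *Itgb3* in cells with 5500 to 8500 genes, of which only 20 were ESC, with 2.69 for Epi-like cells over ESC and 3.96 for iTSC over ESC. Leaving out the highest 5% of cells set some means of rarely found genes to 0. With other limits on genes per cell, 48 of 120 shares of cells moved beyond their interval, and so did 36 of 48 shares of dimers. Depth limits *Itga7*, *Itgb3* and *Itgb4*, which were found in under 21% of the cells of each compartment.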
